A study of Mus musculus and Homo sapiens with 18 samples.

Results

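A set of 10 Notch pathway genes, chosen by name with earlier results of these data known, was followed through the study's 3 systems. It held the receptors Notch1, Notch2 and Notch3, the ligands Dll1, Jag1 and Jag2, and the targets Hes1, Hes5, Hey1 and Heyl. All 10 had an entry among the 46882 genes counted in lens, the 54838 in NLPCs and the 60880 in HLE-B3 cells, where the human symbols are written in capitals. Enough reads to be tested fell on 9 of the 10 in lens, 9 in NLPCs and 10 in HLE-B3 cells, and the gene that could not be tested in the mouse systems was Heyl. RNA-seq compared controls with samples in which Qk or QKI was targeted, with 3 libraries in each of 6 groups. Lenses were taken at P17-19 from C57BL/6 mice that all carried Nestin-CreERT2, a tamoxifen-activated Cre under the Nestin promoter, and that all received tamoxifen at P7 and P8. By their labels all 3 Ctrl mice were QkL/+, with 1 floxed allele, and all 3 Qk-iCKO mice were QkL/L. NLPCs are lens progenitor-like cells differentiated from neural stem cells of P1 brains of Nestin-CreERT2;QkL/L mice, first with Noggin at 100 ng/ml and then with bFGF at 100 ng/ml together with BMP4 and BMP7 at 20 ng/ml each, and were labelled WT or Qk-/-, the deletion being induced in culture by 4-hydroxytamoxifen. HLE-B3 is an immortalized human lens epithelial line, grown in 20% serum as WT cells or as QKI KO cells that had been infected with a CRISPR/Cas9 lentivirus and selected with puromycin, and whether the KO cells were a clone or a pool was not given in the sources used here. QKI (mouse Qk) encodes an RNA-binding protein.

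In Notch signalling, a DLL or JAG ligand on one cell binds a Notch receptor on its neighbour, and the receptor is then cut by an ADAM protease and by γ-secretase. The freed intracellular domain enters the nucleus, joins the DNA-binding protein RBPJ and a Mastermind-like coactivator, and switches on HES and HEY genes, which encode basic helix-loop-helix repressors. In neural stem cells the pathway holds progenitors undifferentiated, with Hes1 and Hes5 as its best known outputs. In the lens, Jag1 made by fibre cells signals to Notch in the epithelium, which keeps epithelial cells dividing and lets secondary fibres form in balance.

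Lens libraries held 10319320 to 16425331 counts, NLPC libraries 28154202 to 68243360 and those of HLE-B3 cells 69190864 to 81384471. QKI was lower in all 3 HLE-B3 KO libraries (log2 fold change −1.34 ± 0.05 SE, adjusted p = 1.85e-11, edgeR). Qk in lens was −0.31 ± 0.14 (adjusted p = 0.20), where loxP sites flank a single exon and reads of the rest of the transcript still count. In NLPCs Qk was higher in all 3 libraries labelled Qk-/- than in any labelled WT (0.41 ± 0.09, adjusted p = 0.027, edgeR). These cells carry the same floxed allele, so the count of Qk did not check that label. By immunostaining and immunoblot, the paper reports loss of Qki protein from the neural stem cells and the NLPCs. The name "labelled Qk-/-" is kept for these libraries. Qk-iCKO lens 1 stood apart with a TMM scaling factor of 1.48 against 0.888 to 0.962 in the other lenses, and library 2 labelled Qk-/- had the lowest depth of its system. Lens fibre markers were abundant in every lens, except Lim2 at no more than 0.0713 CPM. The 9 fibre markers summed to 0.810 to 4.75 CPM (counts scaled to library size with TMM factors) in NLPCs and 3.52 to 8.08 CPM in HLE-B3 cells, where CRYAA was at 0, and Foxe3 was at no more than 0.0179 and 0.137 CPM in these 2 systems, while Pax6 was at 61.5 to 88.0 CPM in the mouse systems and 127 to 156 CPM in HLE-B3 cells.

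A gene was called when its p-value in edgeR's quasi-likelihood test, adjusted by Benjamini-Hochberg over all genes tested in that system, was under 0.05. In lens 2 of 9 members were called, 0 higher and 2 lower, where 12.3% of the 12201 genes tested were called, 8.38% of them as higher and 3.88% as lower. In NLPCs 5 of 9 were called, 1 higher and 4 lower, where 10.7% of 20371 genes were called, 4.74% as higher and 5.96% as lower. In HLE-B3 cells 7 of 10 were called, 1 higher and 6 lower, where 33.3% of 19049 genes were called, 17% as higher and 16.3% as lower. The median log2 fold change of the members was 0.15 in lens, −0.27 in NLPCs and −0.42 in HLE-B3 cells, beside 0.01, 0.04 and −0.02 over all genes tested. Hey1 was called lower in all 3 systems. Hes5 was called lower in both mouse systems and Notch3 in NLPCs and HLE-B3 cells, and Hes1 was called in none, by edgeR or by DESeq2. Only the spread between these libraries enters the p-values, and for the cultured cells nothing in the labels says that the libraries came from separate cultures.

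**Figure D1:**
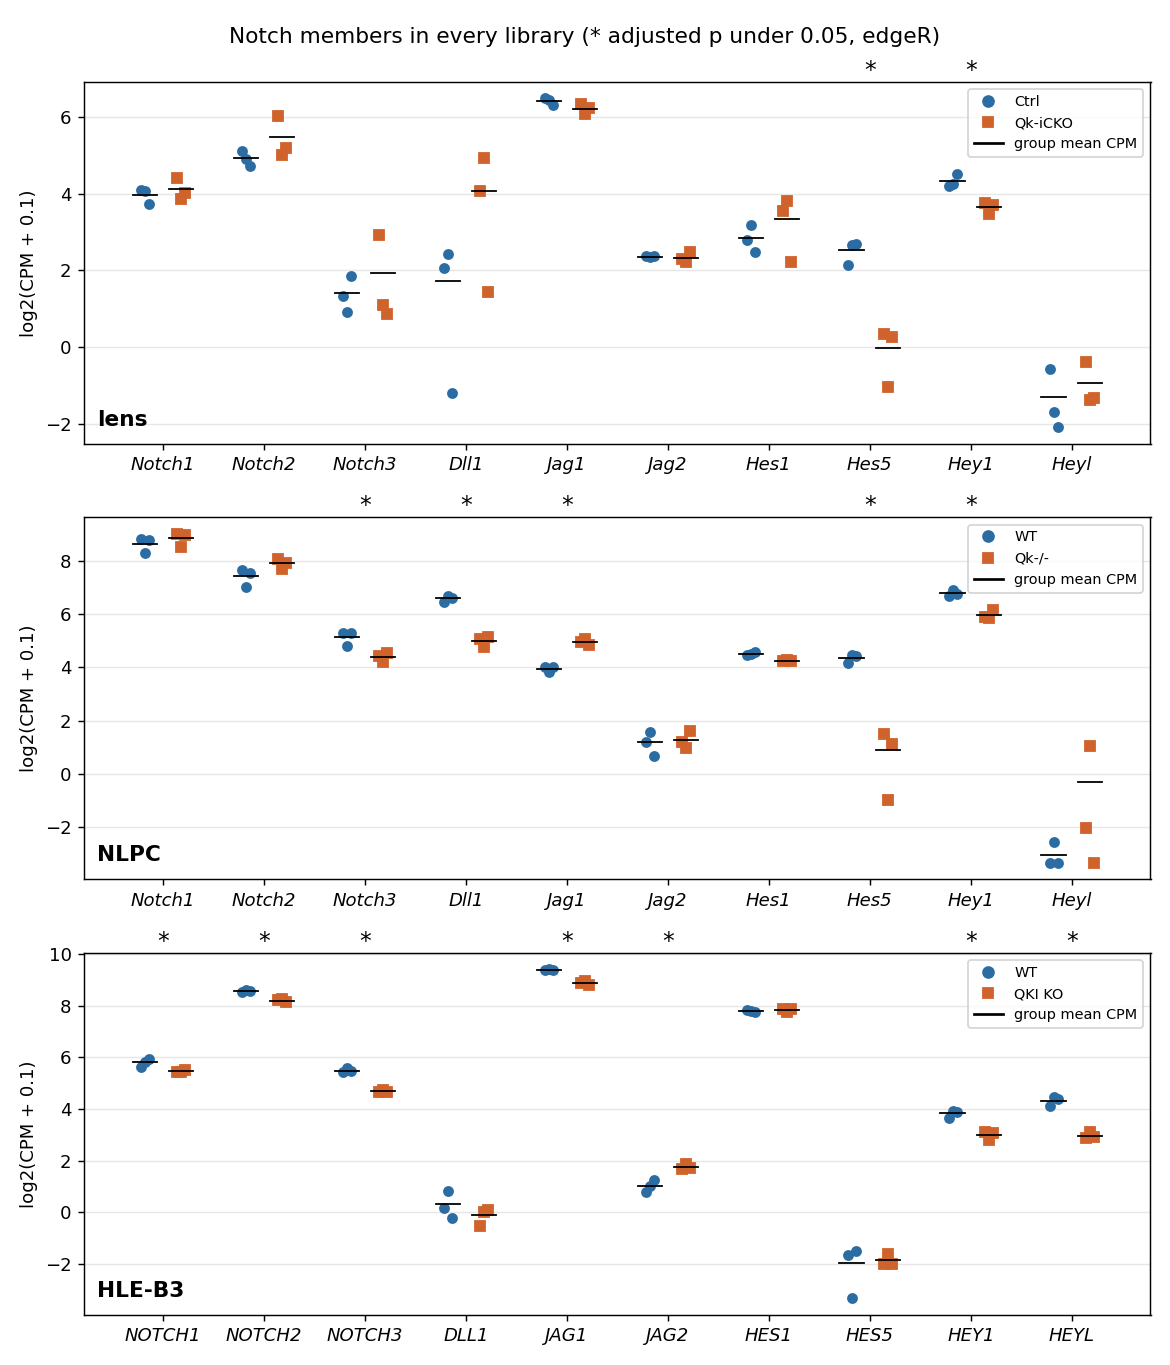
Each point is 1 library, drawn as log2(CPM + 0.1), with controls as blue circles and the Qk-iCKO, labelled Qk-/- and QKI KO libraries as orange squares, bars at the group mean of CPM and asterisks over genes with an adjusted p under 0.05. Hes5 drops in both mouse systems, Hey1 in all 3, and the groups of HES1 overlap in HLE-B3 cells at 217 to 233 CPM.

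Notch receptors are single-pass proteins that bind ligand outside the cell and act as transcription factors once cut. In lens 0 of the 3 receptors were called by edgeR or by DESeq2, and 0 had an unadjusted p under 0.05 in edgeR. Notch1 was at 16.8, 16.6 and 13.04 CPM in Ctrl and 21.1, 14.4 and 16.0 CPM in Qk-iCKO lenses (log2 fold change 0.15, 95% interval −0.29 to 0.60). Notch2 measured 34.6, 29.6 and 26.1 CPM in Ctrl and 65.2, 31.8 and 36.0 CPM in Qk-iCKO lenses (0.56 ± 0.28 SE, adjusted p = 0.236, edgeR). The groups overlapped for both, and Qk-iCKO lens 1, the lens with the outlying scaling factor, was the highest for each. Notch3 was low in lens, at 1.78 to 3.50 CPM in Ctrl and at 7.43, 2.03 and 1.72 CPM in Qk-iCKO lenses, again with lens 1 the highest. Without Qk-iCKO lens 1 the log2 fold changes of Notch1 and Notch3 became −0.03 and −0.45, and that of Notch2 became 0.17.

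Among the NLPC libraries, those labelled Qk-/- had less Notch3, the receptor that in the body is best known from vascular mural cells. It was at 39.3, 27.6 and 39.5 CPM in WT and 21.3, 18.3 and 23.4 CPM in the libraries labelled Qk-/- (−0.75 ± 0.17 SE, a 1.69-fold decrease, adjusted p = 0.0289, edgeR). The groups did not overlap, although WT library 2 came close. The call was lost when WT library 1, WT library 3, or library 1 or 3 labelled Qk-/- was left out (edgeR, adjusted p up to 0.16), with log2 fold changes of −0.92 to −0.66 over all 6 omissions. Notch2 was at 201, 131 and 186 CPM in WT and 269, 205 and 242 CPM in the libraries labelled Qk-/-, every one of which lay above every WT library. Its log2 fold change was 0.47 ± 0.17 SE (adjusted p = 0.126, edgeR), and the gene was called with the replicate number as a block (0.48, adjusted p = 0.0232, edgeR), by DESeq2 (0.48, adjusted p = 0.0384) and without library 2 labelled Qk-/- (0.57, adjusted p = 0.0269). The pairing behind the block was inferred from these counts on a weak basis. Notch1, the most abundant of the receptors in these cells per length of transcript, ranged from 312 to 446 CPM in WT and from 369 to 514 CPM in the libraries labelled Qk-/-, and the ranges overlapped (0.20, 95% interval −0.20 to 0.60).

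In HLE-B3 cells all 3 receptors fell in QKI KO. NOTCH3 fell most, from 42.7, 48.0 and 43.9 CPM in WT to 25.2, 26.8 and 25.3 CPM in QKI KO (−0.80 ± 0.07 SE, 1.74-fold, adjusted p = 3.68e-07, edgeR). NOTCH1 was at 49.7, 56.6 and 61.8 CPM in WT and at 43.7, 43.3 and 45.9 CPM in QKI KO (−0.34 ± 0.08 SE, adjusted p = 0.00276, edgeR). NOTCH2 was at 370, 391 and 376 CPM in WT and at 295, 305 and 283 CPM in QKI KO (−0.36 ± 0.05 SE, adjusted p = 4.22e-05, edgeR). No KO library overlapped a WT library for any of the 3. The value of NOTCH2 is uncertain for 2 reasons. Reads could have been shared with near-identical NOTCH2NL copies, of which NOTCH2NLA alone was found in the table, at 3917 to 4710 counts in WT and 3104 to 3691 in QKI KO. The 50 genes nearest to NOTCH2 on its chromosome had a median log2 fold change of −0.20, with 35 of them below 0, and less this median NOTCH2 stood at −0.16. For NOTCH3 and NOTCH1 the same medians were −0.05 and 0.08.

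Dll1 and Jag1 are transmembrane ligands, and Dll1 is the one that neural progenitors present to their neighbours. Both changed in NLPCs, in opposite directions. Dll1 fell from 87.4, 103 and 97.3 CPM in WT to 33.3, 26.9 and 35.2 CPM in the libraries labelled Qk-/- (−1.59 ± 0.13 SE, 3.01-fold, adjusted p = 0.000424, edgeR). Jag1 rose from 16.1, 14.1 and 15.9 CPM to 30.8, 33.4 and 28.5 CPM (1.00 ± 0.12 SE, 2.01-fold, adjusted p = 0.002, edgeR). Each group was tight for both genes, with a wide gap between the groups, and both calls held with each library left out in turn (log2 fold changes of −1.69 to −1.48 for Dll1 and 0.93 to 1.04 for Jag1). Taken per length of transcript within a library, so that no scaling between libraries enters, Jag1 stood at 0.134, 0.0992 and 0.118 of Dll1 in the WT libraries and at 0.670, 0.901 and 0.586 in those labelled Qk-/-. Jag2, the other ligand of the JAG family, was scarce in NLPCs at 1.48 to 2.97 CPM (0.10, 95% interval −0.73 to 0.94). A lincRNA, A930024N18Rik, overlaps Dll1 on the opposite strand and had 55 to 133 counts in NLPCs, where Dll1 itself had 786 to 6685.

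Jag1 was the most abundant ligand in lens per length of transcript and was not called there. It measured 88.8, 86.3 and 78.7 CPM in Ctrl and 80.4, 67.4 and 74.1 CPM in Qk-iCKO lenses (−0.19, 95% interval −0.52 to 0.13, adjusted p = 0.402, edgeR), and the groups overlapped. Jag2 stayed between 4.55 and 5.45 CPM in all 6 lenses (−0.03, 95% interval −0.44 to 0.38). Dll1 in lens was at 4.06, 5.28 and 0.343 CPM in Ctrl and at 16.5, 30.4 and 2.63 CPM in Qk-iCKO lenses. Within both groups the third lens was far below the others, and Qk-iCKO lens 3 lay below Ctrl lenses 1 and 2. The log2 fold change was 2.36 ± 0.95 SE (95% interval 0.14 to 4.59, adjusted p = 0.153, edgeR). With the replicate number as a block it was 2.37 (adjusted p = 0.000851, edgeR), which brought the called members to 3. The pairing behind this block was inferred from these counts on a weak basis. Dll1 was also called when every gene with at least 1 count was kept (2.35, adjusted p = 0.00325, edgeR). The 7 markers of pigmented and ciliary epithelium that were looked for were also lowest in the third lens of each group, with sums of 38.8, 40.5 and 5.22 CPM in Ctrl and 486, 479 and 24.7 CPM in Qk-iCKO, and their part in the Dll1 values was not tested. None of the 5 of these markers that could be tested was called, and the sums of the Qk-iCKO lenses were mostly Optc, at 347, 455 and 16.1 CPM there and 0.961 to 33.0 CPM in Ctrl. The pigment genes Dct and Pmel were highest in Qk-iCKO lens 1, at 64.4 and 30.9 CPM, whereas Dll1 was highest in Qk-iCKO lens 2. In bulk tissue, fewer cells of a type and less RNA per cell cannot be told apart, and the same holds for more.

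**Figure D2:**
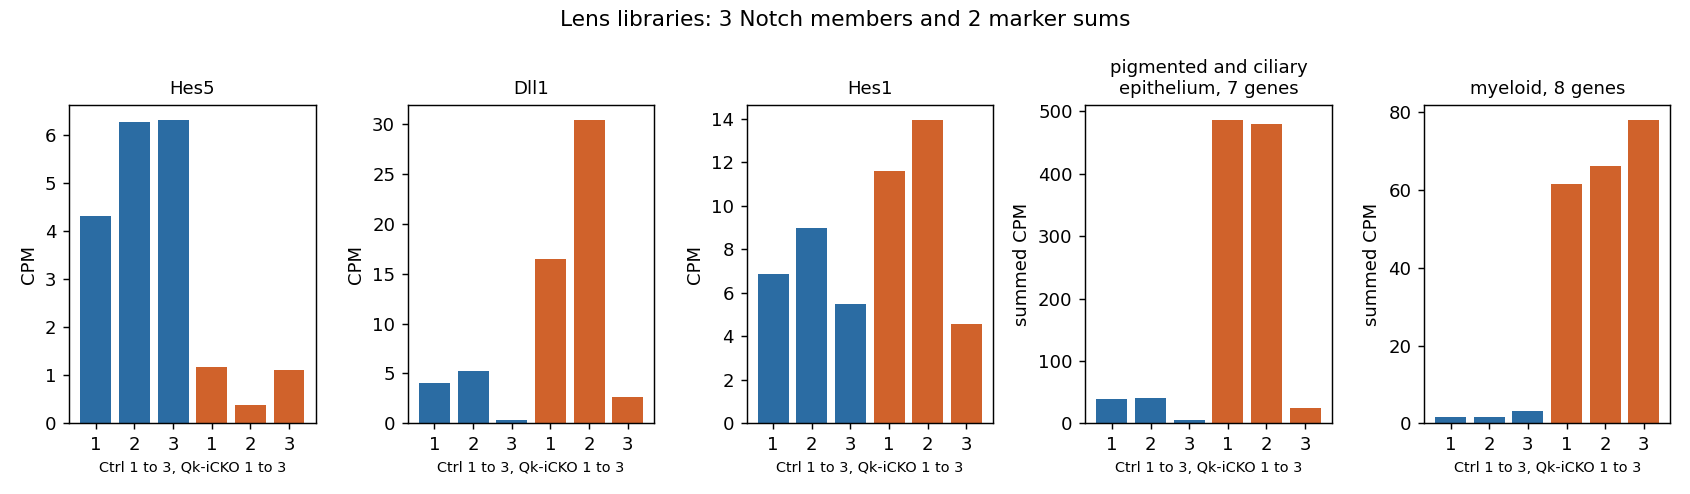
Bars give CPM of Hes5, Dll1 and Hes1 and the summed CPM of 2 marker lists in each lens, with Ctrl lenses 1 to 3 in blue and Qk-iCKO lenses 1 to 3 in orange. Dll1 and the pigmented and ciliary markers are lowest in lens 3 of each group, and the myeloid sum separates the groups at 1.71 to 3.09 against 61.5 to 78.0 CPM.

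In HLE-B3 cells JAG1 fell and JAG2 rose. JAG1 went from 669, 680 and 671 CPM in WT to 465, 500 and 451 CPM in QKI KO (−0.51 ± 0.05 SE, 1.42-fold, adjusted p = 9.93e-07, edgeR). JAG2 was scarce, at 1.64, 1.95 and 2.29 CPM in WT and 3.14, 3.52 and 3.22 CPM in QKI KO (0.75 ± 0.22 SE, 1.68-fold, adjusted p = 0.0126, edgeR). Neither pair of groups overlapped. DLL1 had 44 to 121 counts per library, or 0.600 to 1.66 CPM, with overlapping groups (−0.47, 95% interval −1.29 to 0.34), and it lies over FAM120B on the opposite strand, a gene with 3288 to 4052 counts per library, so its few counts are uncertain.

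**Figure D3:**
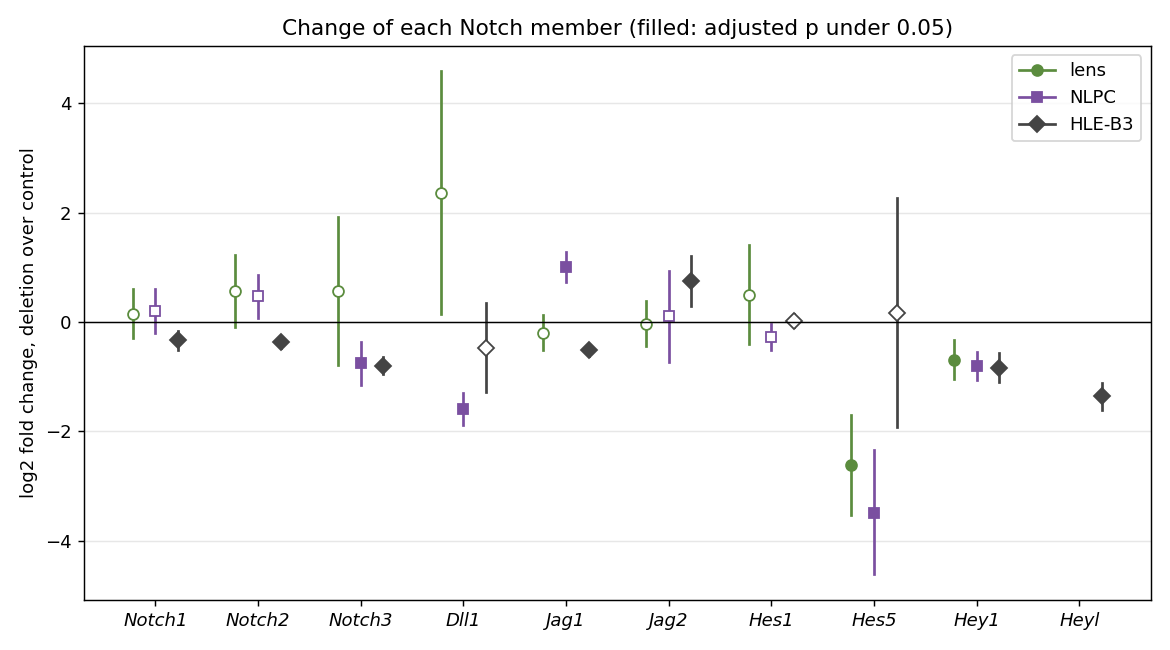
Points give the log2 fold change of deletion over control in lens (green circles), NLPCs (purple squares) and HLE-B3 cells (grey diamonds), lines the 95% interval, and filled points an adjusted p under 0.05, and Heyl has a point in HLE-B3 only. Dll1 lies above 0 in lens and below 0 in NLPCs, Jag1 below 0 in lens and HLE-B3 and above 0 in NLPCs, and Hey1 between −0.84 and −0.69 in all 3.

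The deletion effect on Dll1 and on Jag1 was tested for a difference between the mouse systems, by an interaction term in 1 edgeR fit to the 16675 genes present in both tables that passed the filter over the 12 libraries, of which 8.53% were called. The 2 ligands were the called members, of 10 that passed this filter. The log2 fold change of Dll1 in NLPCs minus that in lens was −3.88 ± 0.97 SE (adjusted p = 0.0277, edgeR), and that of Jag1 was 1.30 ± 0.17 SE (adjusted p = 0.000804). The Jag1 difference kept its call with each of the 12 libraries left out and lost it with total counts as the only scaling (0.94, adjusted p = 0.0957, edgeR). The Dll1 difference lost it in 7 of these 12 omissions, with an adjusted p of 0.064 at most, namely without Ctrl lens 1, Qk-iCKO lens 2, any of the WT NLPC libraries, or library 1 or 3 labelled Qk-/-, and its value stayed between −4.48 and −3.17. For the targets edgeR gave no call, with a difference of −0.80 ± 0.72 SE for Hes5 (adjusted p = 0.555) and −0.02 ± 0.20 SE for Hey1 (adjusted p = 0.993).

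HES and HEY proteins are the repressors that the pathway switches on, and their genes are where a change in receptor or ligand is usually read out. RBPJ binds DNA at sites with the core TGGGAA. This core was searched on both strands, as TGGGAA or TTCCCA, in the 250 bases before the start of each member. RefSeq windows on GRCm38 were held for 7 of the 10 mouse members, not for Hes1, Hey1 and Heyl, and Dll1 had a window for each of 2 starts. A match was present in the window of Hes5 and in 0 of 7 windows of receptors and ligands, where 21.5% of 27025 mouse windows held one. Human windows were taken on GRCh37 before the canonical transcript start of GENCODE, and 19.6% of 19869 held a match, as did those of HES1, HES5, HEY1 and HEYL and 0 of the 6 of receptors and ligands. Each of the 5 target windows held 2 matches. The windows of the targets whose counts fell most in mouse and in human cells are shown with that of HES1, which was not called, and all matches are in capitals. They lie at chr4:154960673-154960922 (plus strand, GRCm38) for Hes5, at chr1:40105316-40105565 (minus strand, GRCh37) for HEYL and at chr3:193853687-193853936 (plus strand, GRCh37) for HES1. A match describes these letters only and is not evidence of binding.
Hes5: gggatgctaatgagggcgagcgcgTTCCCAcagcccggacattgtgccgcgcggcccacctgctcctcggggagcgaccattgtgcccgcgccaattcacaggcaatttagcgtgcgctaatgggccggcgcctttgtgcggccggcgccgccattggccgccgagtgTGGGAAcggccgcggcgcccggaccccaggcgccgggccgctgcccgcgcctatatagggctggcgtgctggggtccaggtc
HEYL: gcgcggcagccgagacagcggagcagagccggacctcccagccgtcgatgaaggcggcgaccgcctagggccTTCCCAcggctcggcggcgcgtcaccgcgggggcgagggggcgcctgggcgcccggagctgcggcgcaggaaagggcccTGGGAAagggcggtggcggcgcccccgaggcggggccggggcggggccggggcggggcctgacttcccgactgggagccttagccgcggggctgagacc
HES1: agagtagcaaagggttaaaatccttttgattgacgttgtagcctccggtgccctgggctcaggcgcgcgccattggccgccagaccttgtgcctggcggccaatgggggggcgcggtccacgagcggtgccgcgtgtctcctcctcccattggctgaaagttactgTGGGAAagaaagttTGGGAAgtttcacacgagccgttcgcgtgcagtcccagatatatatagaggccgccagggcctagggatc

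Hes5, which maintains neural stem cells together with Hes1, fell most of the tested members in both mouse systems. In lens it had 52, 88 and 92 counts in Ctrl and 19, 4 and 11 counts in Qk-iCKO, or 4.31, 6.27 and 6.32 CPM against 1.17, 0.387 and 1.11 CPM. The log2 fold change was −2.63 ± 0.39 SE (6.17-fold lower, adjusted p = 0.00678, edgeR). The lowest Ctrl lens stood well above the highest Qk-iCKO lens, and the call held with each lens left out (−2.90 to −2.30, edgeR adjusted p up to 0.0342). In NLPCs Hes5 was at 17.8, 21.9 and 21.7 CPM in WT and at 2.73, 0.410 and 2.11 CPM in the libraries labelled Qk-/- (−3.49 ± 0.49 SE, 11.2-fold lower, adjusted p = 0.00432, edgeR). Again the groups were far apart, library 2 labelled Qk-/- was the lowest with 12 counts, and the call held in all 6 omissions (−3.92 to −3.07). Gm20421, which overlaps Hes5 on the opposite strand, had 0 to 7 counts in any mouse library. In HLE-B3 cells HES5 had 0 to 18 counts per library and no measurable difference (0.17, 95% interval −1.93 to 2.27).

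Marker genes of the lens and of other cells moved between the same mouse groups. The 9 lens fibre markers summed to 212500 to 225500 CPM in Ctrl and 113800 to 196100 CPM in Qk-iCKO lenses. Of 8 tested 1 was called, Mip, as lower (−1.69, adjusted p = 0.0259, edgeR). The 7 lens epithelial markers summed to 305 to 357 and 405 to 796 CPM, with 2 of 7 called, Npnt and Cp, both higher. The 8 myeloid markers summed to 1.71 to 3.09 CPM in Ctrl and 61.5 to 78.0 CPM in Qk-iCKO lenses. Of the 6 that could be tested, Ptprc, Cd68, Adgre1, Tyrobp and Fcer1g had 0 to 4 counts per Ctrl lens. These passed the filter only through the Qk-iCKO lenses, so no share of calls is given for this list. Sums of the 8 vascular endothelial markers were 4.64 to 9.82 and 16.0 to 26.4 CPM, with 2 of 5 tested called higher. The 8 astrocyte and neural stem cell markers summed to 47.3 to 60.9 CPM in Ctrl and 62.4 to 105 CPM in Qk-iCKO lenses, with 1 of 7 tested called, as higher, while Hes5 fell. In NLPCs these 8 summed to 6129 to 6749 CPM in WT and 4275 to 4858 CPM in the libraries labelled Qk-/-, where 3 of 7 tested were called lower, Slc1a3, Gfap and Sox2, and 1 higher, Aqp4. Nes and Fabp7 in that list stood at −0.13 and −0.18 (log2 fold change) and were not called. Neuronal markers summed to 1256 to 1329 and 1560 to 1691 CPM, mostly Map2, at 1207 to 1287 CPM in WT and 1496 to 1621 CPM in the libraries labelled Qk-/-. Of these markers 3 of 6 were called higher, Map2, Dcx and Snap25. Rbfox3 and Syt1 stood at 2.25 and 0.85 and Tubb3 at −0.88 (log2 fold change), all without a call. The part of these cell types in the values of Hes5 and of the other members was not tested.

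Hey1, a Notch target of vessels, heart and neural precursors, fell in all 3 systems. It was at 18.2, 19.0 and 22.8 CPM in Ctrl and 13.3, 10.9 and 12.8 CPM in Qk-iCKO lenses (−0.69 ± 0.16 SE, 1.62-fold lower, adjusted p = 0.0282, edgeR). The groups did not overlap, but the lens call was lost without any one of the Ctrl lenses or without Qk-iCKO lens 2 or 3, with log2 fold changes of −0.77 to −0.60 and edgeR adjusted p up to 0.107. It was also lost with total counts as the only scaling (−0.38, adjusted p = 0.457, edgeR), under which the median of all genes stood at 0.29, so that Hey1 was −0.67 relative to it. In NLPCs Hey1 went from 102, 119 and 109 CPM in WT to 58.8, 57.7 and 71.7 CPM in the libraries labelled Qk-/- (−0.81 ± 0.12 SE, 1.75-fold lower, adjusted p = 0.0044, edgeR), with no overlap and no call lost in 6 omissions. In HLE-B3 cells HEY1 went from 12.4, 15.2 and 14.9 CPM to 8.47, 6.88 and 8.42 CPM (−0.84 ± 0.12 SE, 1.79-fold lower, adjusted p = 5.6e-05, edgeR). Every KO library was below every WT library. The 50 nearest genes on chromosome 8 had a median of −0.30, and less this HEY1 was at −0.54.

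HEYL, the third HEY gene, showed the steepest fall of a member in HLE-B3 cells. Its level went from 17.4, 21.8 and 20.6 CPM in WT to 7.27, 8.62 and 7.43 CPM in QKI KO (−1.36 ± 0.12 SE, 2.57-fold lower, adjusted p = 1.46e-07, edgeR). The groups were well separated, and the 50 nearest genes had a median of −0.03. In mouse it was nearly silent, with 2 to 11 counts in lens and 0 to 8 in NLPCs apart from 58 in library 2 labelled Qk-/-.

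Hes1, the target shared by most Notch-responsive tissues, was not called in any system. In HLE-B3 cells HES1 was at 228, 225 and 218 CPM in WT and 233, 217 and 233 CPM in QKI KO (0.03, 95% interval −0.09 to 0.14, adjusted p = 0.78, edgeR), an interval of 0.94 to 1.10 as a ratio of KO to WT. In NLPCs it was at 21.9, 22.6 and 23.8 CPM in WT and 18.7, 19.1 and 18.9 CPM in the libraries labelled Qk-/-, with no overlap (−0.27, 95% interval −0.51 to −0.03, adjusted p = 0.144, edgeR). In lens the values were 6.88, 8.98 and 5.49 CPM in Ctrl and 11.6, 13.9 and 4.54 CPM in Qk-iCKO (0.50, 95% interval −0.41 to 1.41), with the third lens the lowest of each group as for Dll1.

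Set against Hes1 within each library, per length of transcript, the other targets moved without any scaling between libraries. Hes5 stood at 0.936, 1.04 and 1.72 of Hes1 in Ctrl and at 0.150, 0.0415 and 0.365 in Qk-iCKO lenses. In NLPCs the same ratio was 1.21, 1.45 and 1.36 in WT and 0.218, 0.0320 and 0.167 in the libraries labelled Qk-/-. For HEYL in HLE-B3 cells it was 0.0385, 0.0491 and 0.0478 in WT and 0.0158, 0.0201 and 0.0161 in QKI KO. None of these 3 pairs of groups overlapped. The ratio of Hey1 to Hes1 was 2.86 to 3.29 in WT and 1.88 to 2.37 in labelled Qk-/- NLPC libraries, and 0.0204 to 0.0256 in WT and 0.0119 to 0.0137 in QKI KO HLE-B3 cells, without overlap in either. In lens the ranges of this ratio overlapped, at 1.32 to 2.59 in Ctrl and 0.490 to 1.76 in Qk-iCKO.

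Per length of merged exons, the members held different orders in the controls of each system. In Ctrl lenses Jag1 was highest at 14.5 CPM per kilobase, then Hey1 at 6.12, Hes5 at 4.13, Hes1 at 3.49 and Notch2 at 2.79, of which Hes5, Hes1 and Notch2 overlapped their neighbours in this order. Notch1, Dll1 and Jag2 followed at 1.09, 0.765 and 0.724, with overlap, ahead by their means of Notch3 at 0.317 and Heyl at 0.0607. Dll1 ranged from 0.0813 to 1.25 and so also overlapped Notch3, at 0.22 to 0.433, and Heyl, at 0.0268 to 0.113. In WT NLPCs Hey1 at 33.7, Notch1 at 28.1 and Dll1 at 22.7 overlapped in sequence, followed by Notch2 at 16.0 and then Hes5, which overlapped it, then by Hes1, Notch3, Jag1 and Jag2. In WT HLE-B3 cells HES1 led at 109 and JAG1 came second at 72.4, ahead of NOTCH2 at 22.6. HEYL, NOTCH3 and NOTCH1 lay together at 4.90, 4.77 and 4.47, with HEY1 at 2.58, and JAG2, DLL1 and HES5 were at 0.306 or below, the first and second with overlap. Jag1 was thus the ligand with the highest level in lens and HLE-B3 cells and Dll1 in NLPCs.

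**Figure D4:**
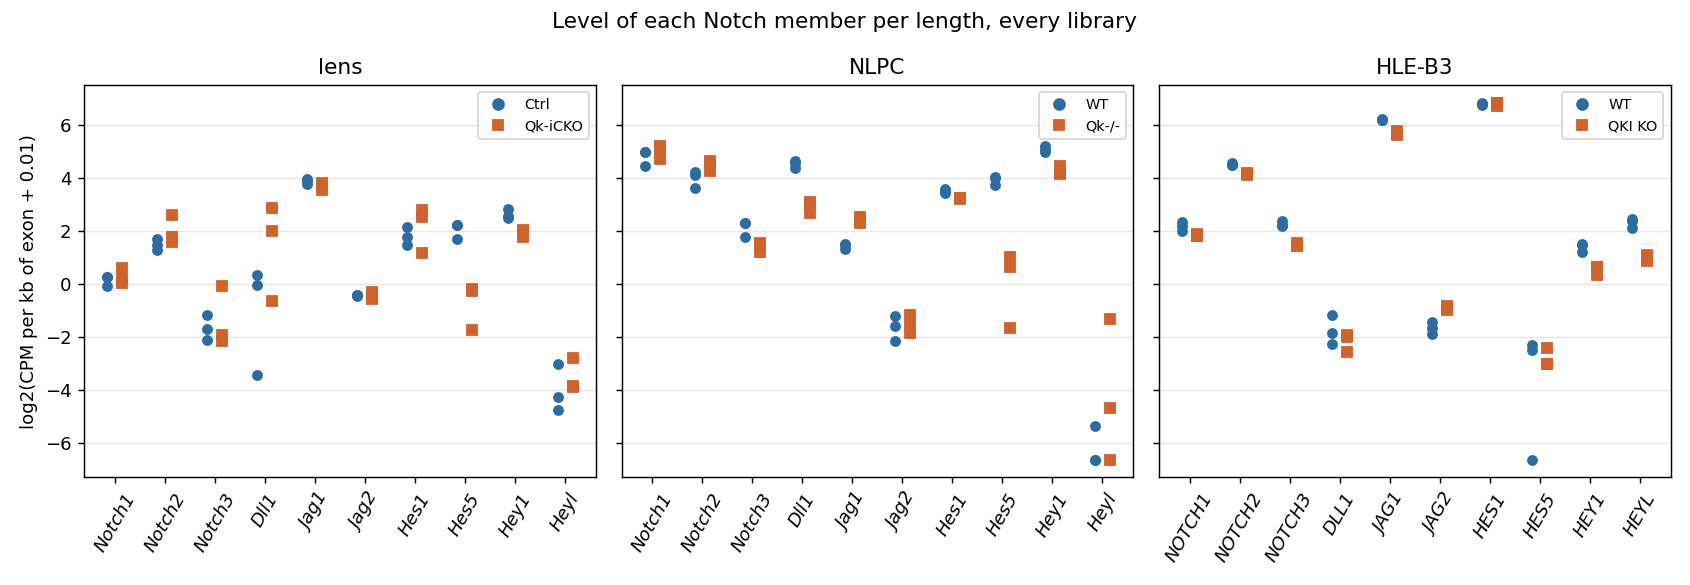
Points give log2(CPM per kilobase of exon + 0.01) of each member in every library, with controls as blue circles and the Qk-iCKO, labelled Qk-/- and QKI KO libraries as orange squares. Jag1 leads in lens, Hey1, Notch1 and Dll1 in NLPCs and HES1 and JAG1 in HLE-B3 cells, and Heyl and HES5 lie at the bottom of their systems.

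A further 57 genes of the pathway were examined by role, without the 10 members. In lens 6 of 44 tested were called, 4 higher and 2 lower (median log2 fold change 0.13), where 12.3% of all genes tested were called. In NLPCs these were 8 of 54, 2 higher and 6 lower (median −0.10), beside 10.7% of all genes, and in HLE-B3 cells 21 of 51, 9 higher and 12 lower (median −0.04), beside 33.3% of all genes. Among the other targets and HES genes 2 of 4 tested were called in NLPCs and 2 of 4 in HLE-B3 cells, all as lower, and these were Nrarp and Hey2 in both. Nrarp, a Notch target whose small protein dampens the pathway, fell in NLPCs from 5.15, 8.70 and 7.79 CPM in WT to 1.33, 0.376 and 0.843 CPM in the libraries labelled Qk-/- (−3.05 ± 0.44 SE, adjusted p = 0.00472, edgeR). In HLE-B3 cells NRARP fell from 9.56, 9.86 and 9.69 CPM to 2.16, 2.42 and 2.57 CPM (−2.03 ± 0.15 SE, adjusted p = 2.17e-08, edgeR). Both differences were far wider than the spread within groups. Hey2, the remaining HEY gene, was 2.79-fold lower in NLPCs (−1.48 ± 0.23 SE, adjusted p = 0.00623, edgeR) and 1.81-fold lower in HLE-B3 cells (−0.86 ± 0.21 SE, adjusted p = 0.00423). Neither Nrarp nor Hey2 could be tested in lens, where they had 5 to 25 and 2 to 13 counts. Hes6, which opposes Hes1 in neurogenesis, was not called in NLPCs (−0.53, adjusted p = 0.0612, edgeR) or in HLE-B3 cells (0.46, adjusted p = 0.296).

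Dll3, a divergent ligand that acts within the cell, fell with Dll1 in NLPCs, from 11.6, 19.4 and 14.04 CPM in WT to 1.45, 0.513 and 2.34 CPM in the libraries labelled Qk-/- (−3.33 ± 0.46 SE, 10.1-fold lower, adjusted p = 0.00386, edgeR). The groups did not overlap. Lfng encodes a glycosyltransferase that modifies Notch and changes its choice of ligand. It was 1.85-fold lower in Qk-iCKO lenses, at 71.4, 60.6 and 55.6 CPM in Ctrl and 34.2, 32.4 and 34.9 CPM in Qk-iCKO (−0.88 ± 0.14 SE, adjusted p = 0.00901, edgeR). In HLE-B3 cells LFNG was lower as well (−0.66 ± 0.09 SE, adjusted p = 3.68e-05, edgeR), and in NLPCs it was not called.

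The proteases, cofactors and ubiquitin ligases moved in both directions. In HLE-B3 cells 4 of 9 tested protease genes rose and 1 fell, where 17% of all genes tested were called higher and 16.3% lower. The 4 were PSENEN, NCSTN and APH1A of γ-secretase and the sheddase ADAM10, of which PSENEN changed most (1.10 ± 0.16 SE, 2.14-fold higher, adjusted p = 5.47e-05, edgeR), and APH1B fell. Of the transcription complex MAML2 and KAT2A rose there and MAML1 and EP300 fell, and RBPJ was not called (0.17, adjusted p = 0.0568, edgeR). The 50 genes nearest to MAML2 and to NCSTN had medians of 0.65 and 0.38. Less these medians MAML2 stood at −0.28 and NCSTN at −0.17, while the other called protease and transcription complex genes kept their direction. NEURL1B and MIB1, ligases that let ligands signal, fell (−1.87 ± 0.34 and −0.88 ± 0.06 SE), and the 50 genes nearest to MIB1 had a median of −0.44. Smaller changes in HLE-B3 cells were called higher for the ligand-like DLK2 (0.57), the glycosyltransferase POGLUT1 (0.34) and the corepressor CTBP2 (0.24). Called lower were the corepressor TLE4 (−0.27) and the ubiquitin ligase genes DTX3L (−0.69), DTX3 (−0.42) and FBXW7 (−0.20). In lens Ncstn, Tle1, Dtx3l and Dtx4 rose and Kat2b fell beside Lfng. Dtx3l had 4, 1 and 3 counts in Ctrl and 33, 12 and 10 in Qk-iCKO (0.0713 to 0.332 and 1.01 to 2.03 CPM). It passed the filter only through the Qk-iCKO lenses, so its lens call is uncertain. In NLPCs Maml3 and Fbxw7 rose and Tle4, Adam17 and Dtx4 fell, and 3 genes had opposite calls between systems, differences that were not tested. They were Dtx4 in lens (0.81) and NLPCs (−0.69), Dtx3l in lens (2.79) and HLE-B3 cells (−0.69), and Fbxw7 in NLPCs (0.58) and HLE-B3 cells (−0.20). For Dtx3l the limit on its lens call applies here too. In lens the count of these pathway genes depended on single libraries, with 0 called without Ctrl lens 1, 1 without Ctrl lens 2 or Ctrl lens 3 and 10 with the replicate block, and in NLPCs it rose to 16 without library 2 labelled Qk-/-.

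**Figure D5:**
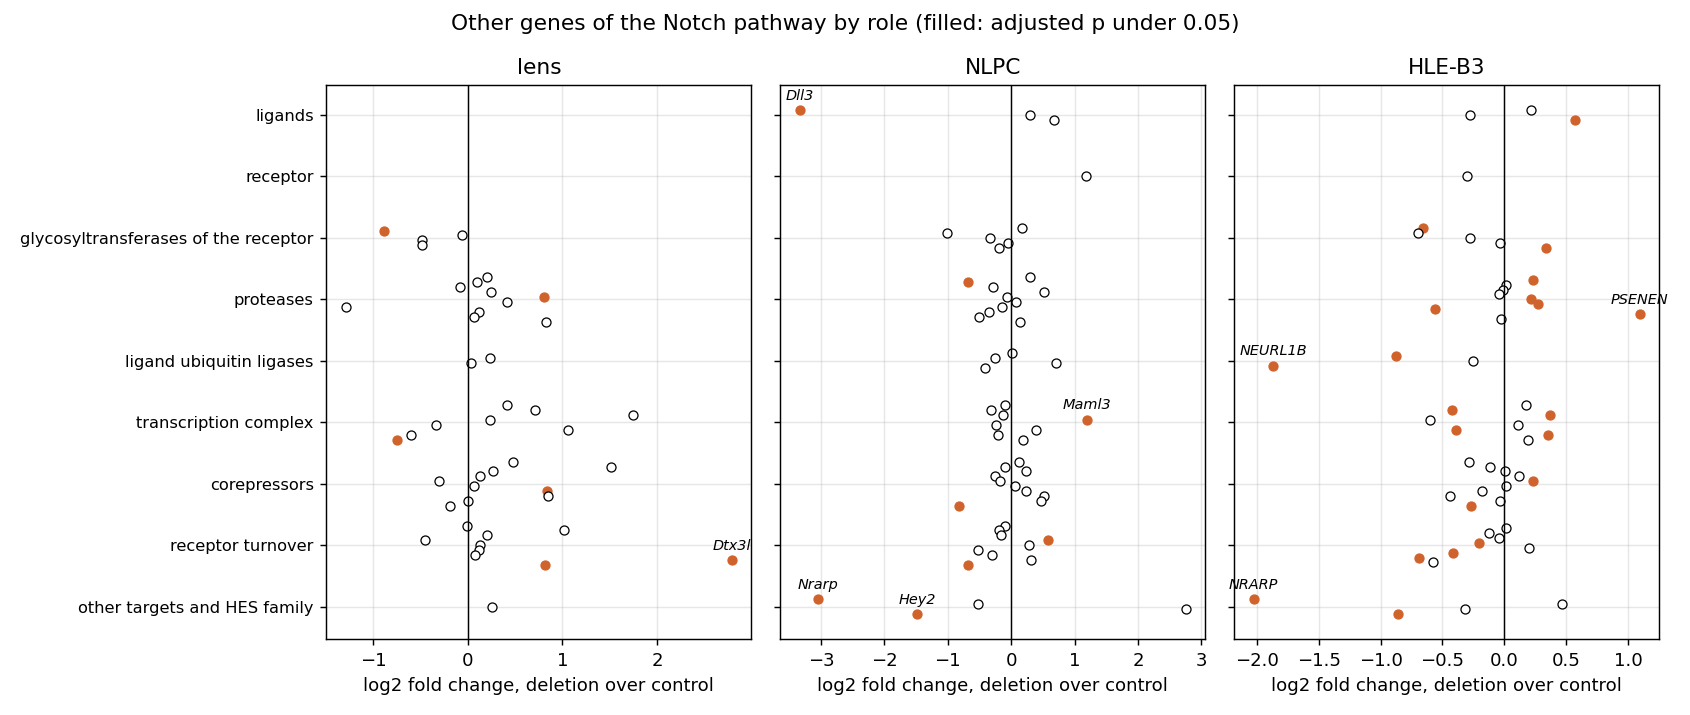
Each point is 1 tested gene of the wider Notch pathway, placed by its log2 fold change of deletion over control (separate scales per system) and by its role, filled where the adjusted p is under 0.05, with names on called genes that changed by more than 1 on the log2 scale. Nrarp lies at −3.05 in NLPCs and NRARP at −2.03 in HLE-B3 cells, both among the lowest of their system.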

How the data were processed

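RNA-seq libraries of lens, NLPCs and HLE-B3 cells were analysed from 1 table per system. The authors extracted total RNA, prepared stranded paired-end libraries, aligned the reads with STAR (2.6.1b) to mm10 or hg19 and deposited raw counts per gene from HTSeq (0.11.0), without normalization. The strand setting of the counting was not given in the sources used here, and the submitters' notes also list HISAT2 and featureCounts with no role. All 18 libraries were used, grouped by their labels, and the ChIP-seq data were not used here.

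Each system was fitted on its own in edgeR 4.0.16 (R 4.3.3) with filterByExpr (minimum count 10, minimum total 15), TMM scaling and the quasi-likelihood test without covariates, and p-values were adjusted by Benjamini-Hochberg over all genes tested. Errors are SEs of the log2 fold change, and levels are CPM on TMM-scaled library sizes. Lengths are merged exons of GENCODE on GRCm38 and GRCh37. The members and the lists of pathway and marker genes were chosen with earlier results of these data known. All members and the called genes of the pathway list are named.

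Deviations from the group means of same-numbered libraries correlated across genes by 0.233, 0.133 and 0.523 in lens and 0.123, 0.32 and 0.145 in NLPCs. All exceeded 0.1, so the numbers were taken to pair them there, and not in HLE-B3 cells (0.0613, 0.0566 and −0.0495). Unmatched pairs reached 0.279 in lens (Ctrl 2 with Qk-iCKO 1) and 0.232 in NLPCs (WT 1 with 3 labelled Qk-/-), above the matched pair of that control, so this basis is weak. The smallest p of an exact permutation test at this group size is 0.1, so none is printed. Alternatives were RLE factors or total counts for scaling, other filters on low counts, DESeq2 1.42.0, the replicate block, crystallins left out of the scaling (lens), the median of the nearest genes (HLE-B3) and each library left out in turn. The steps were tested on simulated counts.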

Additional observations from a re-analysis of the deposited data

Results flagged for a closer look

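The effect of the deletion differed between the mouse systems for 2 members, by the interaction test in edgeR. For Dll1 the log2 fold change in NLPCs minus that in lens was −3.88, from −1.59 in NLPCs and 2.36 in lens, where the lens value was not called by itself. For Jag1 it was 1.30, from 1.00 in NLPCs and −0.19 in lens. Dll1 in lens was lowest in the same lens of each group as the summed markers of pigmented and ciliary epithelium, whose part was not tested.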

How the results depend on the processing

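In HLE-B3 cells all 7 calls among the members held under each alternative that gives a call and with each library left out. Subtracting the median of the nearest genes gives no call. It kept the direction of all 7 and took NOTCH2 from −0.36 to −0.16. The replicate block, whose numbers did not pair the libraries there, gave 5901 genes and 7 members. In the mouse systems the replicate block changed the call of lens Dll1 and NLPC Notch2 and of no other member, and raised the other pathway genes in lens from 6 to 10. Total counts alone gave 884 genes in lens (768 higher and 116 lower, against 1023 and 473), 1 member and 2 other pathway genes, with Jag1 at 0.12 and Jag2 at 0.25. It gave 1 member for the difference between lens and NLPC, with Notch1 at −0.25, Notch2 at −0.45 and Jag2 at −0.089, and −0.032 for HES1 in HLE-B3. Every gene with at least 1 count gave 2521 genes and 11 pathway genes in lens, 13 pathway genes in NLPCs and −0.050 for the Notch2 difference. At least 10 counts in every library gave 1 member in lens, since Hes5 then could not be tested. DESeq2 called 3826 genes in NLPCs and put the Hey1 difference at 0.012. With 1 library left out, the counts were 581 to 1709 genes, 1 to 2 members and 0 to 6 pathway genes in lens, 681 to 3797 genes and 6 to 16 pathway genes in NLPCs, and 1 to 3 members for the difference. Log2 fold changes that crossed 0 then were Notch1 (−0.027 to 0.26), Notch3 (−0.45 to 0.91) and Jag2 (−0.11 to 0.014) in lens, Jag2 (−0.12 to 0.33) in NLPCs and HES5 (−0.40 to 0.66) in HLE-B3. Differences that did were Notch2 (−0.22 to 0.40), Jag2 (−0.00064 to 0.49) and Hey1 (−0.17 to 0.065). The causes were not tested. Depth limits Heyl in both mouse systems (0 to 58 counts per library) and HES5 in HLE-B3 (0 to 18).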

Other observations

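Library 2 labelled Qk-/- of the NLPCs stood above the other 5 for several scarce genes. Heyl had 58 counts there and 0 to 8 elsewhere. Notch4, a receptor of vascular endothelium, had 288 counts there and 73 to 123 elsewhere (log2 fold change 1.19, adjusted p = 0.352, edgeR). Hes7, the oscillating HES gene of the segmenting embryo, had 106 counts there, 28 and 54 in the other libraries labelled Qk-/- and 9 to 16 in WT (2.75, adjusted p = 0.0874, edgeR). The 8 vascular endothelial markers summed to 12.1 CPM in that library and 2.18 to 4.80 CPM in the others. The rise was not confined to endothelial markers. Myeloid markers summed to 12.9 CPM there and 4.78 to 6.85 CPM in the others, and lens fibre markers to 4.75 against 0.81 to 2.43 CPM. The sum of photoreceptor markers, 6.46 CPM, was also the highest of the system. For the remaining marker lists this library was not the highest.

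In lens Notch4 was below the filter with 6 to 10 counts in Ctrl and 66, 15 and 6 counts in Qk-iCKO lenses, so that Qk-iCKO lens 1 was again the highest.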
